A study of Mus musculus with 9 samples.

Results

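The 10 genes described here code for immune receptors of the myeloid lineage and the ITAM adaptors that they signal through: Trem1, Trem2, Tyrobp, Fcer1g, Fcgr1, Fcgr2b, Fcgr3, Fcgr4, Sirpa and Sirpb1a. They were taken by gene symbol from the 22054 genes of the deposited table, and all 10 were found. Their values were read in 9 RNA-seq libraries from the fracture callus, the repair tissue that bridges a broken bone, of male C57BL/6J mice, whose age the labels give as 7 weeks. All mice had a femoral fracture fixed by a needle in the marrow cavity and received daily intraperitoneal injections of 200 μl for 1 week, and the callus was collected on day 7. Mice received H-151 (750 nmol), a covalent inhibitor of the innate immune adaptor STING, SR-717 (30 mg/kg), a STING activator, or PBS as a control. Each group had 3 libraries, numbered 1 to 3 in the labels, and whether a library came from 1 mouse or several was not stated. The comparisons asked how activating and blocking STING changed the early callus.

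An ITAM (immunoreceptor tyrosine-based activation motif) is a short stretch with a pair of tyrosines in the tail of an adaptor protein. When a partner receptor is engaged, kinases of the Src family phosphorylate the motif, which then recruits the kinase Syk, and in the osteoclast lineage this costimulatory signal feeds calcium signaling and the transcription factor NFATc1. Tyrobp (DAP12) and Fcer1g (the common Fc receptor γ chain) are the adaptors. Trem1, Trem2 and Sirpb1a couple to Tyrobp, whereas Fcgr1, Fcgr3 and Fcgr4, the activating receptors for IgG, couple to Fcer1g. Fcgr2b and Sirpa carry inhibitory motifs instead: Fcgr2b is the inhibitory IgG receptor, and Sirpa is the receptor for the "don't eat me" protein Cd47.

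The genes lie on 5 chromosomes of GRCm38 (the assembly that mm10 denotes). Trem1 (ENSMUSG00000042265, chr17:48232768-48246924, plus strand) and Trem2 (ENSMUSG00000023992, chr17:48346401-48354147, plus strand) are near each other on chromosome 17. A cluster on chromosome 1 holds Fcgr2b (ENSMUSG00000026656, chr1:170958617-170976547, minus strand), Fcgr4 (ENSMUSG00000059089, chr1:171018920-171029761, plus strand), Fcgr3 (ENSMUSG00000059498, chr1:171051174-171064935, minus strand) and Fcer1g (ENSMUSG00000058715, chr1:171229572-171234365, minus strand). Fcgr1 (ENSMUSG00000015947, chr3:96282909-96293969, minus strand) and Sirpb1a (ENSMUSG00000095788, chr3:15371653-15426520, minus strand) are on chromosome 3. Tyrobp (ENSMUSG00000030579, chr7:30413760-30417585, plus strand) is on chromosome 7 and Sirpa (ENSMUSG00000037902, chr2:129592835-129632228, plus strand) on chromosome 2. In the annotation, Trem1 overlaps the processed pseudogene AC241601.2 and Fcgr2b the antisense gene Gm38204 on the opposite strand. Fcgr3 overlaps Mir6546 and Fcgr4 the small nuclear RNA gene Gm26110 on the same strand. None of these 4 genes has a row in the table, and whether counting used the strand was not stated. The expected counts of Sirpb1a, which has close copies in Sirpb1b and Sirpb1c, were not whole in 9 of 9 libraries, those of Fcgr2b in 7 and those of Fcgr3 in 2, so reads of these 3 genes were partly shared out by the counting and their levels are uncertain.

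RefSeq promoter rows (GRCm38.p6) were at hand for 8 of the 10 genes, and Tyrobp and Sirpa had none. The windows of 4 genes, each 250 bases up to the annotated start, are printed, because they belong to the members whose levels varied most (Trem1 and Fcgr4) and least (Trem2) across the libraries and to the high-affinity IgG receptor Fcgr1. They are read on the strand of the gene, and the capitals mark GAGGAA or its reverse complement TTCCTC, the core bound by PU.1, the myeloid master factor, and by other ETS factors.
Trem1 (chr17:48232489-48232738, plus strand): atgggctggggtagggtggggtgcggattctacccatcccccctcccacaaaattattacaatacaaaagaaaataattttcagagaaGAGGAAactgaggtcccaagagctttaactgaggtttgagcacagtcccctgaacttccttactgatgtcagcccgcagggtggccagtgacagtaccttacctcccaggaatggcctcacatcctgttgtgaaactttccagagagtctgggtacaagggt
Trem2 (chr17:48346151-48346400, plus strand): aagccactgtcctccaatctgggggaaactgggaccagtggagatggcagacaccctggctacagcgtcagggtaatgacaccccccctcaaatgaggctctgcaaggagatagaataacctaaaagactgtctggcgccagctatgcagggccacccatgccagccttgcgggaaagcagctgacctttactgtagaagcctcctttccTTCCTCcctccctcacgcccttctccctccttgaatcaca
Fcgr1 (chr3:96293970-96294219, minus strand): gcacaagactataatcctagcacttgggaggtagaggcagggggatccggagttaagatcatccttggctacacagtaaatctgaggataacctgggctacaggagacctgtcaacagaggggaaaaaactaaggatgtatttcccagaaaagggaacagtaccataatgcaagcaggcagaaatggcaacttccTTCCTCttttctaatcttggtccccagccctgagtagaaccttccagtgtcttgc
Fcgr4 (chr1:171018676-171018925, plus strand): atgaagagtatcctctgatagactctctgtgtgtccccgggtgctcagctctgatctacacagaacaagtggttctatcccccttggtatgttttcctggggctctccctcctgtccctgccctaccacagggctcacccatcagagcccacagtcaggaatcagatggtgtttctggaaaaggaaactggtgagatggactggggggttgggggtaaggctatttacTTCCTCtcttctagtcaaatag
The core began 162 bases before the start in Trem1, 40 in Trem2, 55 in Fcgr1 and 22 in Fcgr4. Counting Fcgr3, 5 of the 8 promoters held it on either strand, and 23.3% of all 32851 promoter windows of the same length did. The C/EBP motif TTGCNNAA was found in 1 of the 8 (Fcgr3, against 9.56% of all windows), and the AP-1 motif TGANTCA in 1 (Trem2, as TGAATCA starting 9 bases before the start, against 6.75%). No matches overlapped one another in these 8 genes. Trem1 and Trem2, which differed most in how their levels varied, thus both carried the core, and a match is a description of the letters only.

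Total expected counts were between 16987398 and 23272480 per library, and the lowest count of a member in any library was 20.4 (Sirpb1a in PBS replicate 3). All 10 members passed the filter on low counts in all 3 comparisons. SR-717 replicate 1 stood apart from the other libraries: it lay at 100.6 on the first principal component, which held 46.6% of the variance, PBS replicate 1 was next at 38.8, and the remaining 7 libraries were between -28.8 and -4.03. The labels give bone as the tissue, although their extraction text speaks of cell lines. Markers of cartilage and bone were all detected in every library, with a summed level of 11821 to 21874 TPM (a transcript level scaled for gene length and library total) in 8 libraries and 7070 in SR-717 replicate 1. The 8 markers of skeletal muscle were also detected in every library. They summed to between 4895 TPM (PBS replicate 3) and 26321 TPM (SR-717 replicate 3), with 8886 in SR-717 replicate 1. This was below the cartilage and bone sum in H-151 replicate 1 and PBS replicate 3, and above it in every other library. The fits of the members and of the listed pathway genes that use SR-717 replicate 1 are given with and without it.

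The adaptors were the most abundant members. Tyrobp had 759, 799 and 763 TPM in the H-151 libraries 1, 2 and 3, 940, 697 and 690 in the PBS libraries, and 1489, 765 and 880 in the SR-717 libraries. Fcer1g had 438, 321 and 251 TPM in the H-151 libraries, 736, 304 and 246 in the PBS libraries, and 1238, 347 and 319 in the SR-717 libraries. Both adaptors thus peaked in SR-717 replicate 1 and were next highest in PBS replicate 1, and all 3 groups overlapped. Between the lowest and the highest library, Fcer1g varied 5.03-fold and Tyrobp 2.16-fold.

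The TREM pair held the extremes of variation. Trem1, which amplifies inflammatory signals in neutrophils and monocytes, had 8.92, 6.74 and 1.48 TPM in the H-151 libraries, 20.0, 3.26 and 1.44 in the PBS libraries, and 75.3, 3.55 and 2.62 in the SR-717 libraries. Trem2, a lipid-sensing receptor of macrophages and osteoclast precursors, had 105, 81.5 and 81.7 TPM in the H-151 libraries, 108, 95.9 and 76.1 in the PBS libraries, and 86.9, 86.5 and 89.3 in the SR-717 libraries. Trem1 therefore ranged 52.4-fold over the 9 libraries and Trem2 1.42-fold. Trem2 was the only member that was not highest in SR-717 replicate 1.

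Among the receptors for IgG, Fcgr3 had 122, 96.9 and 68.0 TPM in the H-151 libraries, 154, 92.6 and 52.8 in the PBS libraries, and 381, 91.5 and 83.9 in the SR-717 libraries. The inhibitory Fcgr2b had 94.1, 60.8 and 45.2 TPM in the H-151 libraries, 132, 54.8 and 46.0 in the PBS libraries, and 277, 71.0 and 57.5 in the SR-717 libraries. Activating and inhibitory receptor thus peaked in the same library. Fcgr4, an activating receptor for IgG2 subclasses, had 29.4, 20.1 and 11.8 TPM in the H-151 libraries, 50.6, 21.7 and 10.2 in the PBS libraries, and 162, 23.1 and 19.0 in the SR-717 libraries. Fcgr1, the high-affinity IgG receptor, had 27.4, 17.8 and 9.92 TPM in the H-151 libraries, 40.7, 19.2 and 8.78 in the PBS libraries, and 56.8, 15.6 and 11.8 in the SR-717 libraries. The fold between the lowest and the highest library was 15.9 for Fcgr4, 7.20 for Fcgr3, 6.47 for Fcgr1 and 6.13 for Fcgr2b.

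Of the SIRP family, Sirpa had 226, 153 and 142 TPM in the H-151 libraries, 260, 182 and 139 in the PBS libraries, and 329, 174 and 185 in the SR-717 libraries. Its activating relative Sirpb1a had 3.80, 1.94 and 1.74 TPM in the H-151 libraries, 6.93, 3.01 and 2.06 in the PBS libraries, and 15.4, 7.78 and 2.45 in the SR-717 libraries. Sirpb1a was the only member whose SR-717 replicate 2 exceeded every H-151 and PBS library, while SR-717 replicate 3 lay within their range.

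**Figure D1:**
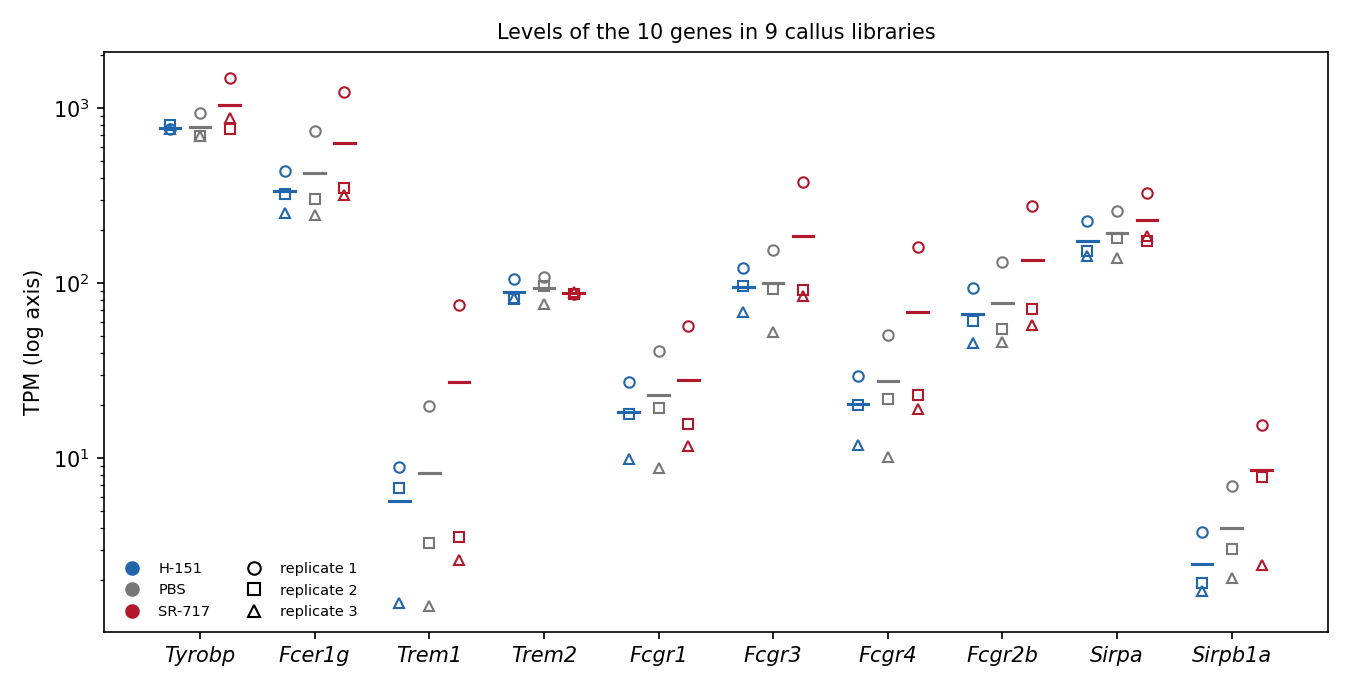
Level of each gene in TPM (log axis) in the 9 libraries, with colours for the groups, symbols for the replicate numbers and a horizontal line at each group mean. The open red circle, SR-717 replicate 1, is the highest point for every gene except Trem2, whose 9 libraries lie between 76.1 and 108 TPM.

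By mean TPM in the PBS group, the order was Tyrobp (776 ± 142, SD, n = 3), Fcer1g (429 ± 268), Sirpa (194 ± 61.0), Fcgr3 (99.9 ± 51.1), Trem2 (93.3 ± 16.0), Fcgr2b (77.5 ± 47.1), Fcgr4 (27.5 ± 20.8), Fcgr1 (22.9 ± 16.3), Trem1 (8.23 ± 10.2) and Sirpb1a (4.00 ± 2.58). The ranges of all neighbours in this order overlapped in PBS. In H-151 the order was the same, and the ranges of 5 neighbouring pairs were apart: Tyrobp above Fcer1g, Fcer1g above Sirpa, Sirpa above Fcgr3, Fcgr2b above Fcgr4 and Fcgr1 above Trem1. In SR-717, Fcgr2b stood above Trem2 in the mean, but in only 1 of the 3 libraries. Tyrobp was above Fcer1g, and Fcer1g above Sirpa, in each of the 9 libraries.

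The replicate number went with the level of these genes in every group. Replicate 1 was the highest library for 9 of 10 members in the H-151 group, with Tyrobp the exception, and for 27.0% of all tested genes in log2 CPM (CPM is a count scaled to a common library total after TMM normalization). It was highest for 10 of 10 in the PBS group (30.9% of all genes) and 10 of 10 in log2 CPM in the SR-717 group (41.2%). In all 3 groups together, 9 of 10 members had replicate 1 highest, as had 11.2% of all genes. Genes expressed in the same cells are not independent of one another.

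Marker genes of some other cell types moved with the same libraries, and those of others did not. The summed level of 12 neutrophil markers was 12569, 11211 and 3098 TPM in the H-151 libraries, 9923, 7522 and 1544 in the PBS libraries, and 35563, 9532 and 6754 in the SR-717 libraries. The 12 macrophage markers summed to between 4373 and 6789 TPM in H-151, between 4196 and 7661 in PBS and between 5364 and 11872 in SR-717. In both lists replicate 1 was the highest library of each group, and no marker of either list was at 0 in any library. SR-717 replicate 1 was the highest of the 9 libraries for 12 of 12 neutrophil and 10 of 12 macrophage markers. It also held the highest sums of 8 NK cell markers (53.0 TPM against 7.74 to 21.0 elsewhere) and 8 T cell markers (53.5 against 12.2 to 30.3), with 6 and 8 of the 8 highest there, and the lowest sum of 10 osteoclast markers (5265 against 6644 to 10994), with 8 of 10 lowest there. The 8 mast cell markers summed to 324 TPM in this library, against 20.3 to 81.1 elsewhere, but Hdc alone gave 303 TPM. The other 7 mast cell markers summed to 21.3 TPM there and to between 17.4 and 43.8 in the other libraries. Other lists did not peak in SR-717 replicate 1. The 8 B cell markers summed to 19.8 TPM there, against 17.2 to 96.7 elsewhere, and the 8 dendritic cell markers to 43.4, against 36.1 to 60.1. The 8 keratinocyte markers, up to 5 of them at 0 in a library, summed to 5.90 there, against 4.02 to 22.3. Tpsab1 of the mast cell list was at 0 in PBS replicate 3, and Klre1 of the NK cell list in H-151 replicate 3 and PBS replicate 1. In such bulk tissue, fewer cells of a type and less RNA per cell cannot be told apart, and the part of these cell types in the members' levels was not tested.

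**Figure D2:**
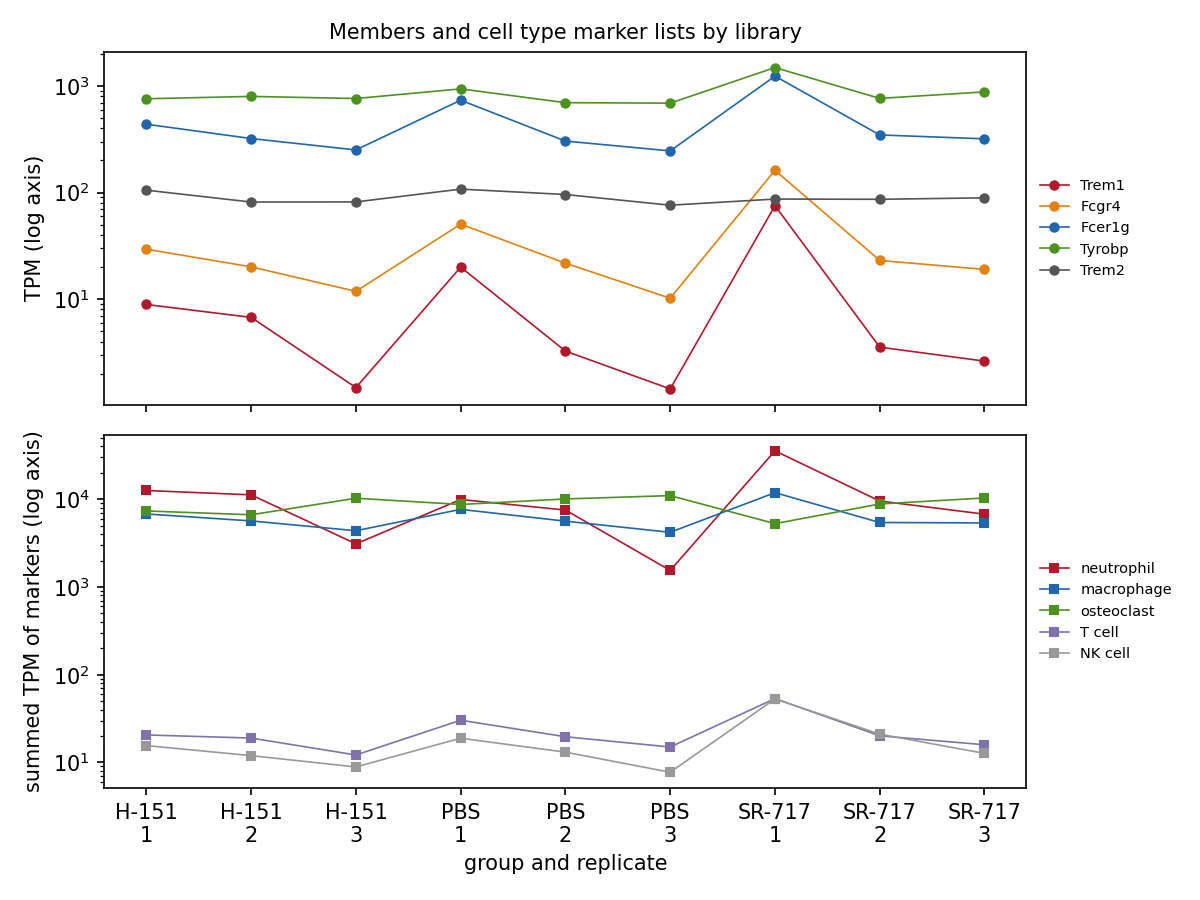
Upper panel, TPM of 5 members, and lower panel, summed TPM of the marker genes of 5 cell types, both on log axes, for each library (group and replicate number on the horizontal axis, points joined to guide the eye). Trem1 spans 1.44 to 75.3 TPM and shares its peak in SR-717 replicate 1 with the neutrophil markers, while Trem2 stays between 76.1 and 108 TPM.

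Between SR-717 and H-151, the activator against the inhibitor, 1 of 10 members was called higher and 0 lower. A gene is called here at an unadjusted p under 0.05 with a fold of at least 1.5 in edgeR's quasi-likelihood test, and 0.367% of the 14151 genes tested were called higher and 0.389% lower. The called member was Sirpb1a, the activating SIRP receptor, at 6.80 ± 5.25 CPM (SD, n = 3) in SR-717 and 1.76 ± 0.732 CPM (SD, n = 3) in H-151. Its log2 fold change was 1.94 with a standard error of 0.72 (adjusted p = 0.996, edgeR). Standard errors (SE) of edgeR fold changes are derived here from the fold change and the F statistic of the test. The groups overlapped, since SR-717 replicate 3 (2.45 TPM) lay below H-151 replicate 1 (3.80 TPM). The call was lost without any of 4 libraries: the unadjusted p then rose above 0.05 at log2 fold changes of 1.23 without SR-717 replicate 1, 1.95 without SR-717 replicate 2, 1.76 without H-151 replicate 2 and 1.79 without H-151 replicate 3. In DESeq2's Wald test, Sirpb1a was likewise the only call among the 8 members with a p, when 1.05% of all genes were called higher and 0.442% lower.

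The other 9 members had positive log2 fold changes without passing the thresholds. These were 2.46 (SE 1.41) for Trem1, 1.89 (SE 0.91) for Fcgr4, 1.10 (SE 0.64) for Fcgr2b, 1.09 (SE 0.65) for Fcgr3 and 1.04 (SE 0.59) for Fcer1g. They were 0.93 (SE 0.72) for Fcgr1, 0.53 (SE 0.33) for Sirpa, 0.51 (SE 0.30) for Tyrobp and 0.044 (SE 0.12) for Trem2. The median of the 10 was 1.07, and that of all genes 0.02, of which 53.4% were positive. None of the 10 members had groups that did not overlap, against 2.67% of all genes higher and 2.51% lower. At an adjusted p under 0.05, edgeR called 0 members and 0 genes in all, whereas 1 member and 1.03% of all genes had an unadjusted p below this value, and DESeq2 called 0 members.

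Most of this difference rested on SR-717 replicate 1. Without it, 0 members were called, 6 of 10 log2 fold changes were positive and the median was 0.02, when 0.498% of all genes were called higher and 0.554% lower and 48.7% were positive. Trem1 then stood at -0.75, Fcgr1 at -0.22, Fcgr3 at -0.073 and Fcgr2b at -0.016, so that these 4 turned their direction. With both libraries numbered 1 left out, the median was 0.19, and 9 of 10 were positive with 0 called, beside 47.3% of all genes positive, 0.297% called higher and 0.466% lower. In the opposite direction, leaving out SR-717 replicate 3 gave 4 calls, Fcer1g, Fcgr2b, Fcgr4 and Sirpb1a, when 3.79% of all genes were called higher. Leaving out SR-717 replicate 2 gave 1 call, Fcgr4 (log2 fold change 2.31), when 1.5% of all genes were called higher. Without H-151 replicate 2, Trem2 turned to -0.026.

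Between SR-717 and PBS, the activator against the PBS control, 0 of 10 members were called, and 0.27% of the 14070 genes tested were called higher and 0.249% lower. In edgeR's test 0 members and 0.689% of all genes had an unadjusted p below 0.05, 0 members and 0 genes an adjusted one, and DESeq2 called 0 of the 9 members with a p. All 10 log2 fold changes were positive, from 0.013 (SE 0.16) for Trem2 to 1.92 (SE 1.54) for Trem1, with a median of 0.83 against 0.01 over all genes. Trem1 and Trem2 thus again marked the ends of the range. The groups overlapped for all 10 members, whereas 1.48% of all genes were higher and 2.26% lower without overlap.

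Libraries of the same number deviated together between these groups, with r = 0.65, 0.34 and 0.14 for the numbers 1, 2 and 3. By this measure, SR-717 replicate 3 was more like PBS replicate 2 than PBS replicate 3. The labels give no pairing, so it rests on these same data. The fit with the replicate number as a block is given beside the unblocked one. With this replicate block, 4 of 10 members were called higher and 0 lower, when 2.43% of all genes were called higher and 0.718% lower. These were Sirpb1a (log2 fold change 1.29, SE 0.32), Trem1 (1.10, SE 0.41), Fcgr4 (0.99, SE 0.35) and Fcgr2b (0.70, SE 0.23). The adaptor Fcer1g also had an unadjusted p below 0.05, but its log2 fold change of 0.54 (SE 0.19) was under the 1.5-fold threshold. No member or other gene had an adjusted p under 0.05 with the block, and the adjusted p of each of the 10 members was 0.999 (edgeR). In log2 CPM, 8 of 10 members were higher in SR-717 in all 3 same-numbered pairs, as were 11% of all genes. The exceptions were Trem2, at -0.12 in the pair numbered 1, and Fcgr1, at -0.024 in the pair numbered 2. In TPM, Fcgr3 (91.5 against 92.6) and Sirpa (174 against 182) were also lower in SR-717 in the pair numbered 2. Of the blocked calls, Trem1, Fcgr4 and Fcgr2b had their largest pair difference in the pair numbered 1 (2.12, 1.87 and 1.23), whereas that of Sirpb1a was in the pair numbered 2 (1.77).

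The direction without the block depended on SR-717 replicate 1 here too. Without it, 2 of 10 members were positive (Sirpb1a at 0.72 and Tyrobp at 0.14), and the median was -0.15, beside 46.9% of all genes positive. PBS replicate 1 was high as well, and with both of these libraries left out, 10 of 10 members were positive with a median of 0.36, and 0 were called, with the block or without it. Of all genes, 49.5% were then positive and 0.579% called higher without the block, and 51.4% and 0.699% with it. Sirpb1a then had a log2 fold change of 1.22 with the block and 1.44 without it. Without SR-717 replicate 3, Sirpb1a was called in the unblocked fit (1.89), when 1.82% of all genes were called higher. Without PBS replicate 2 or PBS replicate 3, Trem2 turned to -0.0086 or -0.078.

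**Figure D3:**
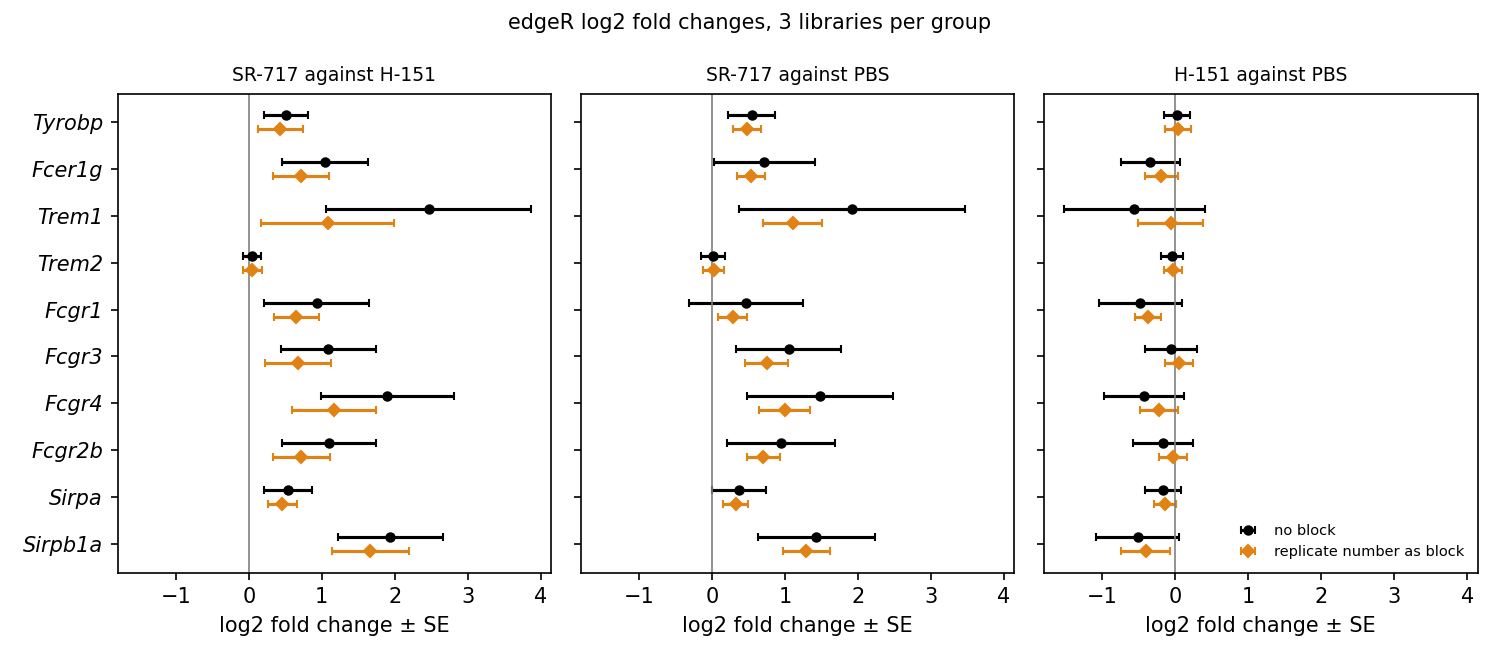
Log2 fold change of each gene from edgeR with its standard error (horizontal bars, derived from the F statistic) in the 3 comparisons, without a block (black circles) and with same-numbered libraries as blocks (orange diamonds). Sirpb1a is at 1.94 in SR-717 against H-151, Trem2 is near 0 in each panel, and the blocked standard errors of SR-717 against PBS are shorter than the unblocked ones (0.41 against 1.54 for Trem1).

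Between H-151 and PBS, the inhibitor against the PBS control, 0 of 10 members were called, and 0.263% of the 14085 genes tested were called higher and 0.163% lower. In edgeR's test 0 members and 0.646% of all genes had an unadjusted p below 0.05, 0 members and 0 genes an adjusted one, and DESeq2 called 0 members. Of the log2 fold changes, 9 were negative, from -0.040 (SE 0.15) for Trem2 to -0.56 (SE 0.97) for Trem1, and 1 of 10 was positive, Tyrobp at 0.025 (SE 0.18). Their median was -0.26, beside -0.02 over all genes. No member had groups without overlap (1.56% of all genes were higher and 2.31% lower without overlap). With the replicate block, 0 members were called as well, when 1.43% of all genes were called higher and 0.433% lower, and 2 of 10 members were positive. The member with the smallest p was then Fcgr1 (-0.38, SE 0.18). Fcgr1 was lower in H-151 in each of the 3 same-numbered pairs, by log2 CPM differences of -0.75, -0.039 and -0.34. In TPM, however, the pair numbered 3 went the other way, at 9.92 in H-151 and 8.78 in PBS.

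These negative values rested on PBS replicate 1. Without it, 10 of 10 members were positive, with a median of 0.29 and Trem1 at 1.21, and 0 were called, beside 48.8% of all genes positive and 0.527% called higher. With both libraries numbered 1 left out, 7 of 10 were positive with a median of 0.14, beside 52.1% of all genes. Without PBS replicate 2 or PBS replicate 3, 0 of 10 were positive. Without H-151 replicate 3, Tyrobp turned to -0.050 and Fcgr3 to 0.078, and without H-151 replicate 2, Trem2 turned to 0.031. SR-717 against PBS and H-151 against PBS share the PBS libraries, and both SR-717 comparisons share the SR-717 libraries, so their values are set side by side and not compared.

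**Figure D4:**
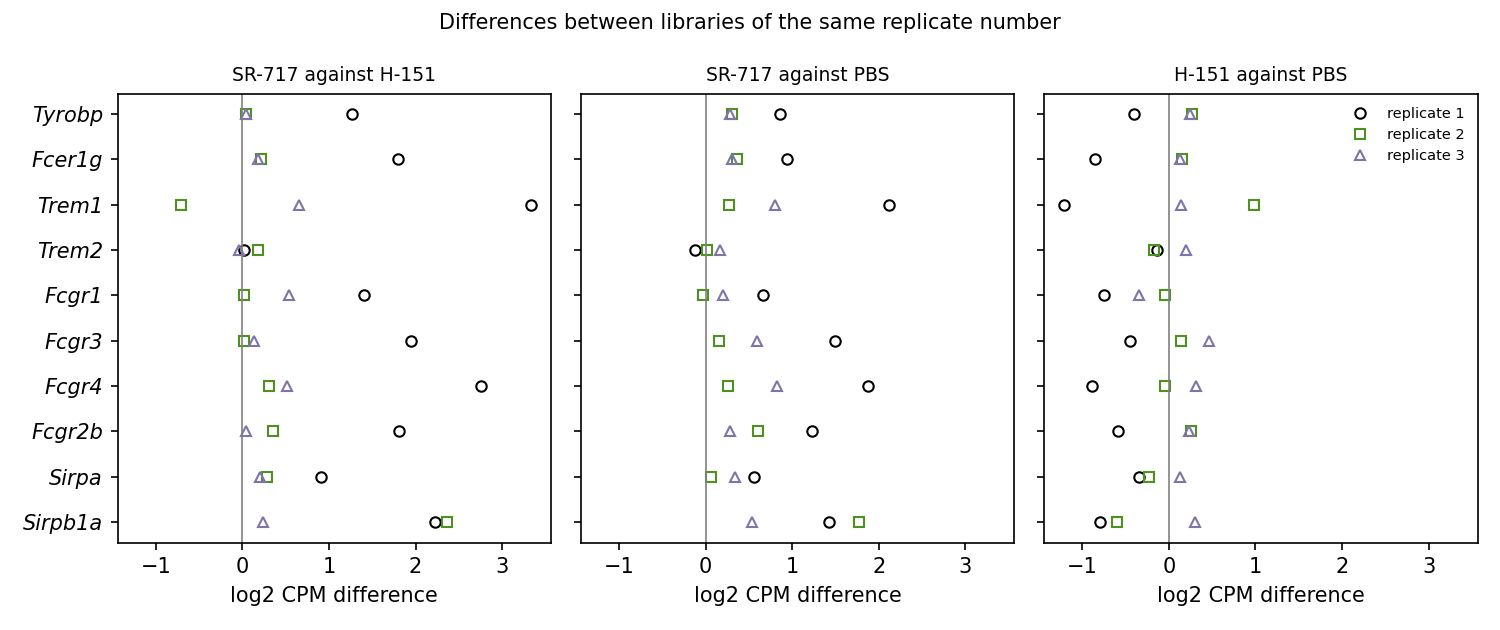
Difference in log2 CPM between libraries of the same replicate number for each gene, in the 3 comparisons, with a symbol and colour for each number. In SR-717 against PBS, Trem1 differs by 2.12, 0.27 and 0.80 in the pairs numbered 1, 2 and 3, and in H-151 against PBS all pairs numbered 1 are below 0.

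Ratios between members within a library do not depend on library scaling, and the scale is TPM. Tyrobp was 1.73, 2.48 and 3.03 times Fcer1g in the H-151 libraries 1, 2 and 3, 1.28, 2.29 and 2.80 times in the PBS libraries, and 1.20, 2.20 and 2.76 times in the SR-717 libraries. The ratio of the adaptors was thus lowest in the library numbered 1 of each group, and in each number it was highest in H-151. The groups overlapped, and the mean log2 ratios of 1.24 ± 0.41 in H-151, 1.01 ± 0.59 in PBS and 0.96 ± 0.62 in SR-717 (SD, n = 3) did not differ beyond this spread between unpaired libraries (exact permutation tests, two-sided, p = 0.6 to 0.7, adjusted p = 0.96 over 12 tests). In the same-numbered pairs 1, 2 and 3, the log2 ratio of SR-717 minus that of PBS was -0.087, -0.058 and -0.026, and that of H-151 minus that of PBS was 0.44, 0.12 and 0.11. Each thus had 1 direction in 3 of 3 pairs (two-sided exact sign-flip permutation test, p = 0.25 in both, the smallest that 3 pairs can give).

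The balance of activating to inhibitory receptors for IgG, (Fcgr1 + Fcgr3 + Fcgr4) over Fcgr2b, was 1.90, 2.22 and 1.98 in the H-151 libraries, 1.86, 2.44 and 1.56 in the PBS libraries, and 2.16, 1.83 and 1.99 in the SR-717 libraries. SR-717 replicate 1, where each of the 4 receptors peaked, thus held a ratio within the range of the other libraries. Sirpb1a over Sirpa was 0.0172, 0.0133 and 0.0130 in the H-151 libraries, 0.0270, 0.0171 and 0.0155 in the PBS libraries, and 0.0472, 0.0453 and 0.0138 in the SR-717 libraries. The mean log2 ratio was 1.10 higher in SR-717 than in H-151 (two-sided exact permutation test, p = 0.2, adjusted p = 0.96), and 0.79 higher without SR-717 replicate 1. Between H-151 and PBS, whose numbers were taken as paired, it was lower in H-151 in 3 of 3 pairs in TPM, with differences of -0.65, -0.36 and -0.26 (exact sign-flip permutation test, p = 0.25). With CPM the mean difference was -0.21 in place of -0.42. In log2 CPM, H-151 exceeded PBS in the pair numbered 3 by 0.31 for Sirpb1a and 0.13 for Sirpa, so the ratio was higher in H-151 there. Trem1 over Trem2 was 0.0855, 0.0838 and 0.0193 in the H-151 libraries, 0.186, 0.0350 and 0.0202 in the PBS libraries, and 0.867, 0.0421 and 0.0305 in the SR-717 libraries. It was higher in SR-717 than in PBS in 3 of 3 pairs (exact sign-flip permutation test, p = 0.25). None of the 12 unpaired tests of these 4 ratios had an adjusted p under 0.96, and with 3 libraries a group the smallest p that such an exact test can give is 0.1.

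**Figure D5:**
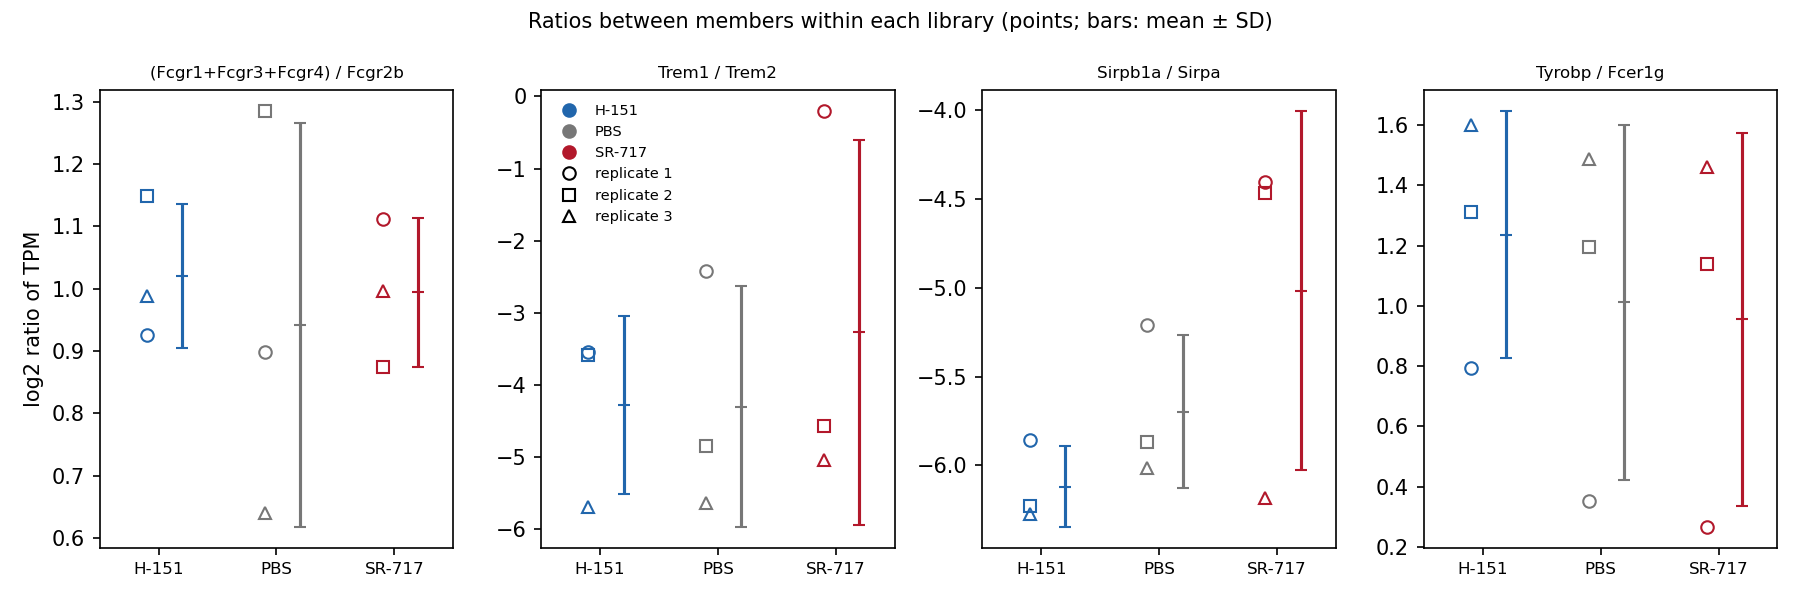
Log2 ratio of TPM between members in each library (points) with the mean ± SD of each group (bars, n = 3), in 4 panels with their own axes. The activating over inhibitory receptor ratio lies between 1.56 and 2.44 on the linear scale in all 9 libraries, and the Tyrobp over Fcer1g ratio is lowest in replicate 1 of each group.

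Other genes of the pathway were read from lists of related receptors and signaling proteins. The first list holds related activating receptors, not all of them known to couple to Tyrobp or Fcer1g, and the adaptor genes Hcst and Cd247. Of its 24 tested genes, 0 were called higher and 1 lower in SR-717 against H-151, with a median log2 fold change of 0.95. Of all genes, 0.367% were called higher and 0.389% lower. In SR-717 against PBS 1 gene of this list was called higher, when 0.27% of all genes were. It was Cd300lb (0.83, SE 0.33), an activating partner of Tyrobp, with 61.5, 44.2 and 26.4 CPM in SR-717 and 29.0, 25.6 and 19.7 in PBS. The receptor called lower in SR-717 against H-151 was Siglech (-1.91, SE 0.62), a Tyrobp-coupled receptor of plasmacytoid dendritic cells, which was also called higher in H-151 against PBS (1.89, SE 0.72) with the same H-151 libraries. It had 1.47, 1.28 and 4.45 CPM in H-151, 0.799, 0.930 and 0.169 in PBS and 0.878, 0.657 and 0.350 in SR-717, so the H-151 libraries did not overlap with either group. These levels are low, and H-151 replicate 3 was far above the other H-151 libraries. Treml4, a TREM family receptor, was called lower in H-151 against PBS (-0.73, SE 0.30). Without SR-717 replicate 1, the median of the 24 listed genes was 0.06 in SR-717 against H-151, Siglech was still called lower (-2.21, SE 0.72), and Cd300lb was no longer called (0.52, SE 0.29).

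Of 27 genes that act downstream of an ITAM, from Src family kinases to NFAT, 0 were called in any comparison. In SR-717 against H-151, 24 of the 27 were positive with a median of 0.31, beside 53.4% of all genes positive. In SR-717 against PBS, 20 of the 27 were positive with a median of 0.24, beside 52.2% of all genes. Syk, the kinase recruited by the motif, had 119, 94.4 and 81.4 CPM in H-151, 162, 109 and 67.3 in PBS, and 359, 114 and 90.6 in SR-717. Like 9 of the 10 members, it was highest in replicate 1 of each group. Its log2 fold change was 0.92 (SE 0.54) in SR-717 against H-151, 0.74 (SE 0.59) in SR-717 against PBS and -0.20 (SE 0.32) in H-151 against PBS. Without SR-717 replicate 1, 14 of the 27 downstream genes were positive in SR-717 against H-151, beside 48.7% of all genes. In SR-717 against PBS, 8 of the 27 were then positive with a median of -0.13, beside 46.9% of all genes. Syk was then at 0.049 in SR-717 against H-151 and at -0.14 in SR-717 against PBS. A list of 19 genes held inhibitory receptors, phosphatases and other negative regulators (Dok adaptors and Cbl ubiquitin ligases). Of these, 1 was called, and it was higher in SR-717 against PBS, where 0.27% of all genes were called higher. It was Lair1, an inhibitory receptor for collagen (1.09, SE 0.43), with 37.1, 21.1 and 12.1 CPM in SR-717 and 13.9, 10.6 and 8.49 in PBS. Without SR-717 replicate 1 Lair1 was not called (0.60, SE 0.35). Of 5 tested genes for ligands of these receptors, 0 were called in any comparison. The smallest adjusted p over these lists was 0.996 (edgeR).

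The genes whose profile over the 9 libraries was most like that of each member were found by the root mean square difference of log2 CPM after centring each gene on its own mean. Trem1 was nearest to Tarm1 (0.25), Ggt1 and Fpr1, and Secisbp2 (0.059) and Cdk11b were among the 3 genes nearest to Trem2. Tyrobp was nearest to Esd (0.096), Tmem268 and Pycard, and Fcer1g to Cfp (0.095), Neurl3 and Mpeg1. Fcgr2b was nearest to Mpeg1 (0.099), Neurl3 and then Fcer1g (0.11), which was also the closest pair of members. Fcgr3 was nearest to Zfp36 (0.080), Ncf4 and Milr1, Fcgr1 to Avpr1a (0.17), Tlr9 and Il1r1, and Fcgr4 to Pim1 (0.16), Pilra and Slc15a3. Sirpa was nearest to Psap (0.073), Lpxn and Gsdmd, and Sirpb1a to Ddx60 (0.21), Map3k8 and Tlr8. The farthest pair of members was Trem1 and Trem2, at 1.66. These distances are not scaled for how much a gene varied. Genes that varied little, such as Trem2 (SD 0.13 in log2 CPM), Secisbp2 (0.089) and Cdk11b (0.12), therefore lie near each other and far from Trem1 (1.83). The distances describe 9 libraries that share SR-717 replicate 1 and carry no test.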

How the data were processed

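Poly(A), strand-specific libraries of callus RNA were sequenced and processed by a service company. The authors deposited expected counts per gene (not normalized, estimated by sharing out reads, so not always whole) and TPM values scaled for gene length. The submitters' processing notes name mm10. The aligner, counter and annotation are not given in the sources used here. All 18 value columns were read.

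Counts were rounded and tested with edgeR 4.0.16 (R 4.3.3): filterByExpr, TMM, quasi-likelihood test, 3 libraries against 3, fitted on all genes, with Benjamini-Hochberg adjusted p-values. The test prints no standard error, so SE is the absolute log2 fold change divided by the square root of the F statistic. DESeq2 1.42.0, as the study names DESeq, was an alternative. The script was tested on simulated data. Libraries totalled 16987398 to 23272480 counts. Ratios used a pseudocount of 0.1.

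Replicate numbers come from the labels, which do not say what they stand for, so p-values measure only the spread between these samples. Deviations of same-numbered libraries correlated with r = 0.65, 0.34 and 0.14 (SR-717, PBS) and 0.30, 0.49 and 0.50 (H-151, PBS), all over 0.1, and these were taken as paired. In SR-717 against H-151 (0.34, 0.062, 0.079) they were not, although numbers that pair PBS with both drugs would pair these groups too. The pairing is thus an assumption drawn from these same data, and the blocked fits and sign-flip tests rest on it. The members and gene lists were chosen with earlier results of these data known. Named genes are the members, listed genes past both thresholds, Syk, and the 3 nearest genes of each member, of which 1 is not reported here. Alternatives were other size factors, filters and fits, the replicate block, and libraries left out. Those without the libraries numbered 1, and the fits of listed genes without SR-717 replicate 1, were chosen after seeing the data.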

Additional observations from a re-analysis of the deposited data

How the results depend on the processing

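The count of called members was 1, 0 and 0 under DESeq2 size factors, DESeq2's Wald test, both other filters on low counts and 1 fit of all 9 libraries. DESeq2 gave no p for Trem1 and Fcgr4 in SR-717 against H-151 and for Trem1 in SR-717 against PBS, and Sirpb1a was not tested at a mean count of 50 in H-151 against PBS. The replicate block gave 4 called members in SR-717 against PBS, with Fcgr3 at 0.048 in H-151 against PBS, and changed no other call. In SR-717 against H-151, where the numbers were not taken as paired, it left 1 call (Sirpb1a, 1.67), when 0.622% of all genes were called higher. With both libraries numbered 1 left out, 0 members were called in SR-717 against H-151, with the block or without it, and Trem1 was at -0.073 and -0.30. In H-151 against PBS these fits gave 0.63 and 0.77 for Trem1, 0.040 and 0.041 for Trem2, 0.16 for Fcer1g, 0.27 for Fcgr2b, 0.32 and 0.29 for Fcgr3, and 0.15 and 0.11 for Fcgr4. CPM in place of TPM turned the difference of the activating over inhibitory ratio to 0.033 in SR-717 against H-151 and -0.033 in H-151 against PBS. The Trem1 over Trem2 difference in H-151 against PBS was -3.4e-04 with CPM and -0.0098 with a pseudocount of 1. Without SR-717 replicate 1, Syk turned to -0.14 in SR-717 against PBS. No ratio test could reach an unadjusted p under 0.1, or under 0.25 in pairs.

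With 1 library left out in turn, called members ranged from 0 to 4, 0 to 1 and 0 to 0 in the 3 comparisons in the order of the report. Where a direction turned, the ranges (log2) in SR-717 against H-151 were Trem1 -0.75 to 3.00, Trem2 -0.026 to 0.10, Fcgr1 -0.22 to 1.37, Fcgr2b -0.016 to 1.48, Fcgr3 -0.073 to 1.46, activating over inhibitory Fc gamma receptors -0.086 to 0.037, Trem1 over Trem2 -0.53 to 1.88 and Tyrobp over Fcer1g -0.53 to 0.064. In SR-717 against PBS they were Trem1 -1.31 to 3.68, Trem2 -0.078 to 0.12, Fcer1g -0.30 to 1.35, Fcgr1 -0.70 to 1.22, Fcgr2b -0.18 to 1.58, Fcgr3 -0.12 to 1.51, Fcgr4 -0.31 to 2.26, Sirpa -0.068 to 0.63, activating over inhibitory Fc gamma receptors -0.10 to 0.22, Trem1 over Trem2 -0.51 to 1.96 and Tyrobp over Fcer1g -0.39 to 0.29. In H-151 against PBS they were Trem1 -1.04 to 1.21, Trem2 -0.13 to 0.080, Tyrobp -0.065 to 0.18, Fcer1g -0.60 to 0.30, Fcgr1 -0.91 to 0.29, Fcgr2b -0.42 to 0.47, Fcgr3 -0.34 to 0.41, Fcgr4 -0.81 to 0.36, Sirpa -0.34 to 0.10, Sirpb1a -0.91 to 0.20, activating over inhibitory Fc gamma receptors -0.071 to 0.25, Trem1 over Trem2 -0.64 to 0.96 and Tyrobp over Fcer1g -0.11 to 0.46. These ratios are differences of log2 TPM ratios. The cause of these changes was not tested. A low level limits Sirpb1a, at 20.4 to 235 counts a library, and Trem1, at 43 to 2542.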

Other observations

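The table annotates 128 genes with KEGG osteoclast differentiation, 8 of the 10 members among them (Trem1 and Fcer1g are not). Of the genes without the members, 112 were tested in SR-717 against H-151, and 2 were called higher and 1 lower. Of all genes, 0.367% were called higher and 0.389% lower. Among the 112, 85 were positive, with a median log2 fold change of 0.27. Without SR-717 replicate 1, 50 of 113 tested were positive, with a median of -0.017. The inflammatory cytokine gene Tnf had 80.9, 3.61 and 3.74 CPM in the SR-717 libraries 1, 2 and 3, 19.5, 3.34 and 2.14 in PBS, and 3.92, 2.22 and 2.28 in H-151 (3.37, SE 1.33). Il1a, which codes for interleukin-1α, had 77.7, 0.657 and 0.526 CPM in the SR-717 libraries, 9.25, 0.465 and 0.225 in PBS, and 0.638, 0.394 and 0.445 in H-151 (5.71, SE 2.12). Without SR-717 replicate 1 neither was called, at 0.26 for Il1a and 0.38 for Tnf. Mapk10, a JNK kinase gene, was lower in SR-717 (-2.20, SE 0.49) without overlap, at 0.0517 to 0.175 CPM against 0.540 to 0.641 in H-151. It was still called without SR-717 replicate 1 (-1.85, SE 0.52). No library held more than 0.731 CPM of Mapk10, so its difference rests on very few reads.

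In H-151 against PBS, 0 of 110 tested genes of the pathway were called higher and 2 lower, when 0.263% of all genes were called higher and 0.163% lower. Tnfsf11, the gene for the osteoclast differentiation factor RANKL, had 5.79, 5.82 and 5.45 CPM in H-151, 24.3, 4.48 and 31.7 in PBS, and 31.2, 4.88 and 3.97 in SR-717 (-1.82, SE 0.63). The H-151 libraries were close together, whereas PBS replicates 1 and 3 and SR-717 replicate 1 were high. Creb1 followed with 25.5, 20.5 and 25.0 CPM in H-151 and 41.5, 23.4 and 62.9 in PBS (-0.85, SE 0.34). The smallest adjusted p of these 5 genes was 0.996 (edgeR). In SR-717 against PBS, 0 of 110 were called, when 0.27% of all genes were called higher and 0.249% lower. Without SR-717 replicate 1 Tnfsf11 was called lower, when 0.324% of all genes were. Of the 110, 75 were positive with SR-717 replicate 1 and 32 without it.

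Treml4, lower in H-151 than in PBS, had 20.7 CPM in SR-717 replicate 1 and between 2.33 and 5.54 in the other 8 libraries.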
